A study of Mus musculus with 30 samples.

Results

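The 10 brain arrays of this series fell on both sides of a gap in the expression of choroid plexus genes. They were divided by a score, the mean of log2(signal + 16) over 9 probe sets for Ttr, Aqp1, Cldn2, F5, Folr1, Kl, Sostdc1, Clic6 and Kcnj13. A score of 8.0 or more placed 6 arrays in the group called rich, and a lower score placed 4 in the group called poor, of 30 arrays in all. The score is itself a measured value of these arrays, so the differences between rich and poor brains are given as descriptions, with their spread and without a test.

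RNA of the liver, the kidney and the brain was measured in 10 male mice of genotype Avy/a, each sampled at weaning on day 22. All of the mice carried the viable yellow allele of agouti opposite the nonagouti allele, and the labels name no treatment. The mice differed in the coat class in the labels, with 2 mice, numbered 1 and 2, in each of Yellow, Slightly_Mottled, Mottled, Heavily_Mottled and Pseudo_Ag, here called pseudoagouti. Per the labels' protocols the mice came from an inbred colony kept heterozygous for Avy by sibling mating, on a background that goes back to C3H/HeJ, and the tissue was frozen before extraction. The labels say brain and no more, so which parts of each brain went into the RNA is not stated, and they give no litter, batch or scan date.

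The choroid plexus is a fringe of epithelium folded over a vascular core, which hangs into the ventricles of the brain and secretes cerebrospinal fluid. Its cells make transthyretin in very large amounts, carry leaky tight junctions built with claudin 2, and move water, ions, folate and other solutes between blood and fluid. In RNA from a whole piece of tissue, fewer cells of a type and less RNA per cell cannot be told apart.

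Promoter letters are shown first for the genes whose groups stood farthest apart, as context for the values that follow. Of 11 choroid plexus genes whose rich and poor arrays did not overlap, 8 were searched in the RefSeq promoter table (build GRCm38.p6). The search covered both strands of the 250 bases before the start of transcription. Ttr, Sostdc1 and Folr1 were not among the 8. Promoters of a single chromosome were left out of this gene search but kept in the shares over all promoters. The letters TATAAA, the core of a TATA box, were found in 2 of the 8 genes and in 12.4% of 32851 promoters of this length. They began 35 bases before the start in Cldn2 and 29 bases before it in Kcnj13, and are in capitals below. The letters TAATCC, a core recognised by OTX homeodomain proteins, were in 0 of the 8 genes and in 6.25% of all promoters. Cldn2, Calml4, Ecrg4 and Kl are printed for their wide separation between the groups, and Kcnj13 for its TATAAA.
Cldn2 (chrX:139800558-139800807, plus strand): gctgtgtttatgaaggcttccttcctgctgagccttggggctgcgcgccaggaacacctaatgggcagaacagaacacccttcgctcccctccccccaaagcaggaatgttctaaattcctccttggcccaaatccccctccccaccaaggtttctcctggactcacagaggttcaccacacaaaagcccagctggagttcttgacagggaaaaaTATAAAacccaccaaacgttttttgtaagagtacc
Kcnj13 (chr1:87394730-87394979, minus strand): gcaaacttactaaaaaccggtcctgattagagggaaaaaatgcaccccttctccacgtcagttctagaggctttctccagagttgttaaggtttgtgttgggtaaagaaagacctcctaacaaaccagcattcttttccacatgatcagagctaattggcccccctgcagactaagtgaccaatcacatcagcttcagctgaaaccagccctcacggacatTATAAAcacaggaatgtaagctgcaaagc
Calml4 (chr9:62857854-62858103, plus strand): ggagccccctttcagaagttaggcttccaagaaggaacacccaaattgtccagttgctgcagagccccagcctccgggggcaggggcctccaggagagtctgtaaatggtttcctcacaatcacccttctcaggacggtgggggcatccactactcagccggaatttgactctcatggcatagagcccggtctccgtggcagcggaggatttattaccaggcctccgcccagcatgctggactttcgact
Ecrg4 (chr1:43730352-43730601, plus strand): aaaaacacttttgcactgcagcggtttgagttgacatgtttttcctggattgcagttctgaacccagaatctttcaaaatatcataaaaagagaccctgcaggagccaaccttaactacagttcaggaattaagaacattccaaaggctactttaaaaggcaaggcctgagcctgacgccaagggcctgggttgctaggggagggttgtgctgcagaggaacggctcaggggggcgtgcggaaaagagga
Kl (chr5:150952357-150952606, plus strand): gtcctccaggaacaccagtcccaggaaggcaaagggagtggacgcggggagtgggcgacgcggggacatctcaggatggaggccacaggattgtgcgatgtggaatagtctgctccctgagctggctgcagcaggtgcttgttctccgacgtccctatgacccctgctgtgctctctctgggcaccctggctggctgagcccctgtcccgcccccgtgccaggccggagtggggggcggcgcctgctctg

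Scores ran from 7.06 to 7.54 in the poor arrays and from 8.29 to 9.32 in the rich ones. The poor arrays were mottled 1 at 7.06, pseudoagouti 1 at 7.06, pseudoagouti 2 at 7.21 and mottled 2 at 7.54. The rich arrays were heavily mottled 1 at 8.29, slightly mottled 2 at 8.60, yellow 1 at 8.70, slightly mottled 1 at 8.72, heavily mottled 2 at 8.77 and yellow 2 at 9.32. The array just below the threshold, mottled 2, and the one just above it, heavily mottled 1, were thus farther apart than the lowest and the highest poor array. In each of the 5 coat classes both mice lay on the same side. The rich side held 3 mice numbered 1 of its 6, and the poor side 2 of its 4.

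**Figure D1:**
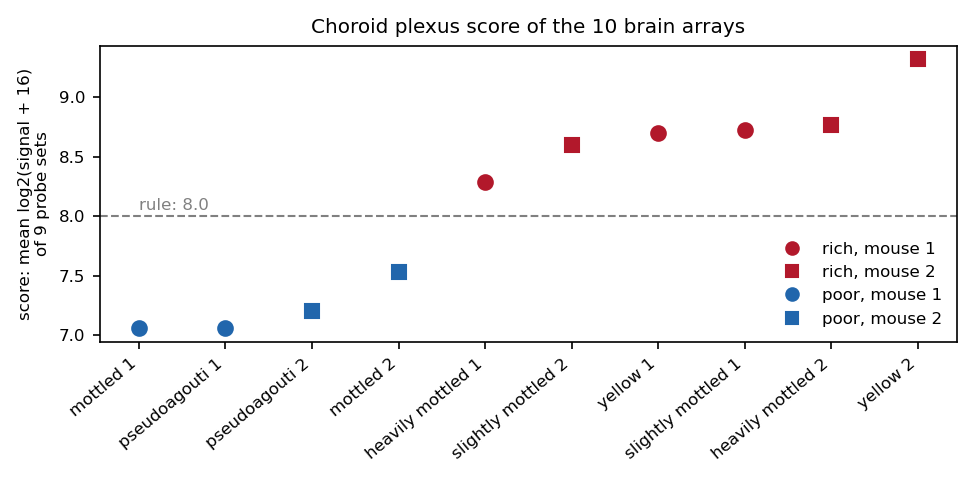
Choroid plexus score of each brain array, in rising order, as mean log2(signal + 16) of 9 probe sets, with circles for mice numbered 1, squares for mice numbered 2 and a dashed line at the threshold of 8.0. The 4 poor arrays (blue) lie between 7.06 and 7.54 and the 6 rich arrays (red) between 8.29 and 9.32.

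Median signals of the arrays overlapped between the groups, at 138.2 to 205.4 in rich and 149.5 to 196.7 in poor brains. Heavily mottled 1 at 205.4 and mottled 1 at 196.7, 1 on each side, stood above the other 8 arrays, which lay at 138.2 to 154.8. With both left out, 8 probe sets were lower in rich brains, by the counting rule used below, rather than 0. Overlap was also seen in the ratio of the 3 prime to the 5 prime Gapdh control, a sign of RNA integrity, with 0.722 to 0.819 and 0.739 to 0.807. The highest signal on an array tended to be larger in mice numbered 1, with overlap, at 23262 to 38492 in mice numbered 1 and 16761 to 26823 in mice numbered 2.

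Of 22519 probe sets that passed a filter on low signal, 17 (0.0755%) were higher in rich brains under the rule used here for counting, namely that every rich array lay above every poor array and the means were at least 1 log2 apart. None was counted as lower (0%). Of the 17, 15 had 1 gene symbol and stood for 10 genes. The 10 comprised Ttr, Cldn2, Sostdc1, Kl, F5, Ecrg4 and Calml4 from the choroid plexus lists, with 12 probe sets, and Esrp2, Ghr and Nol9 from outside every list. The other 2 probe sets had no symbol in the annotation. Over the 22519 probe sets the median difference was 0.0032 log2 and 50.7% had the higher mean in rich brains. The deposited signals were already brought to 1 common trimmed mean, which by itself holds this balance near 0.

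**Figure D2:**
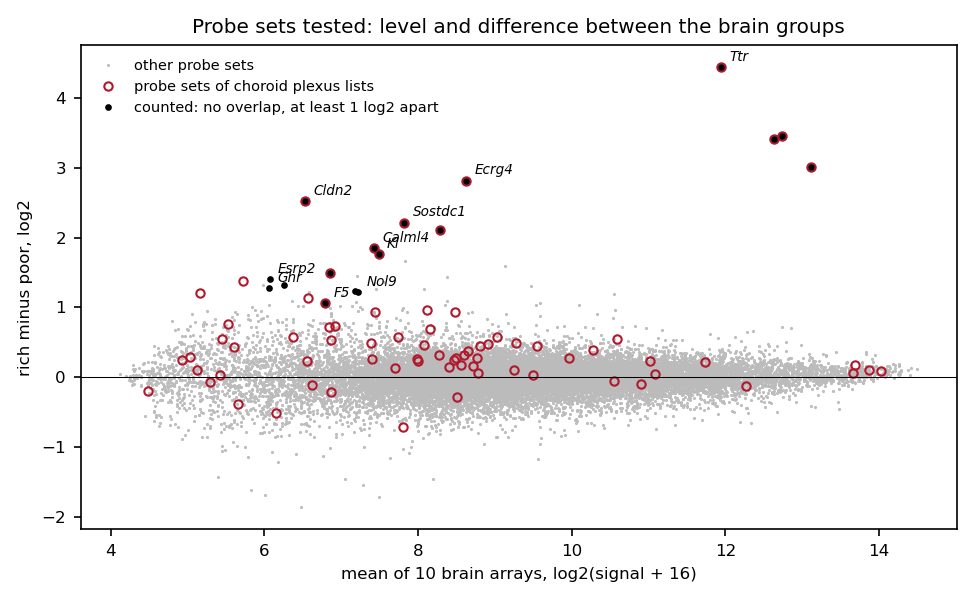
Mean log2(signal + 16) of the 10 brain arrays (horizontal) against the rich minus poor difference in log2 (vertical) for the 22519 probe sets that passed the filter. Red rings mark probe sets of the choroid plexus lists and black dots the 17 that were counted as higher, where Ttr, Ecrg4, Cldn2 and Sostdc1 stand above a grey cloud centred on 0.0032.

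The 4 markers that name the split, Ttr, Cldn2, Sostdc1 and Kl, are all score genes, so their separation follows from the sorting and is no check of the name. Of these Ttr, which encodes the thyroxine carrier transthyretin, spanned the widest range. Its signal in the poor arrays was 373 in mottled 1, 2175 in pseudoagouti 1, 3638 in pseudoagouti 2 and 13281 in mottled 2. In rich arrays it ran from 14660 through a median of 17729 to 31779. The groups did not overlap, but mottled 2 came within 0.14 log2 of the lowest rich array. The means differed by 3.01 ± 1.07 log2 (SE, n = 6 and 4) on the log2(signal + 16) scale, and the SD was 2.11 in poor against 0.50 in rich brains. In 5 of the 6 rich arrays Ttr stood at 83.7 to 89.0% of the array's highest signal, and whether the top of the scale limited these values was not tested. All 4 Ttr probe sets were free of overlap, with differences of 3.01 to 4.44 log2.

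Sostdc1 encodes a secreted inhibitor of BMP and Wnt signals. Its poor signals were 55.2 in mottled 1, 48.3 in pseudoagouti 1, 67.0 in pseudoagouti 2 and 157.7 in mottled 2. The rich arrays lay between 294 and 761 with a median of 373, and the difference was 2.22 ± 0.38 log2 (SE), or 4.64-fold. Here too mottled 2 was the highest of the poor arrays, still 0.83 log2 below the lowest rich one. A second Sostdc1 probe set differed by 1.49 log2, also without overlap.

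Kl, for the anti-ageing protein and FGF co-receptor Klotho, had poor signals of 106.0 in mottled 1, 46.9 in pseudoagouti 1, 69.0 in pseudoagouti 2 and 69.5 in mottled 2. Rich signals ran from 172 through 261 to 532. The difference was 1.76 ± 0.30 log2 (SE), a 3.38-fold step, with 0.63 log2 of clear space between the groups. Its other probe set was near the bottom of the scale, at 3.7 to 40.1 in rich brains, and did not pass the filter.

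Ecrg4 was not part of the score. It encodes the precursor of a peptide that choroid plexus epithelium is known to release, and it showed the next largest difference after Ttr. Poor signals were 57.8 in mottled 1, 112.2 in pseudoagouti 1, 102.9 in pseudoagouti 2 and 182.5 in mottled 2, whereas the rich arrays ran from 343 through 904 to 1685. The means differed by 2.82 ± 0.43 log2 (SE), or 7.06-fold, with 0.86 log2 between the nearest arrays. Among the rich arrays heavily mottled 1 was the low one at 343, and the other 5 were at 674 or more.

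F5 encodes coagulation factor V and passed the counting rule only narrowly. Its poor signals were 84.1 in mottled 1, 47.6 in pseudoagouti 1, 49.3 in pseudoagouti 2 and 46.3 in mottled 2, and the rich range was 90.5 to 255 with a median of 116. With 1.06 ± 0.27 log2 (SE) between means and 0.09 log2 between the nearest arrays, F5 was close to both limits. A second F5 probe set differed by 1.14 log2 with overlap. With any 1 of mottled 2, heavily mottled 2 and yellow 2 left out, F5 was no longer counted.

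The remaining secreted genes of the list had smaller differences with overlap. Lbp, for the lipopolysaccharide-binding protein, was at 244 to 457 in rich and 169 to 268 in poor arrays, a difference of 0.69 ± 0.20 log2 (SE). The growth factor Igf2 differed by 0.55 ± 0.26, the angiotensin-converting enzyme Ace by 0.46 ± 0.26, the IGF-binding protein Igfbp2 by 0.38 ± 0.25 and the protease inhibitor Spint2 by 0.28 ± 0.19 log2 (SE each). Of the 13 genes in this list, 10 passed the filter, all 10 had the higher mean in rich brains and 5 were counted, of which Ttr, Kl, Sostdc1 and F5 are score genes. Without the score genes, 6 genes passed, 6 of 6 had the higher mean in rich brains and 1 was counted (Ecrg4). Their median difference was 0.51 log2, beside 0.0032 for all probe sets. Over all probe sets tested, 0.0755% were counted as higher and 50.7% had the higher mean in rich brains.

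**Figure D3:**
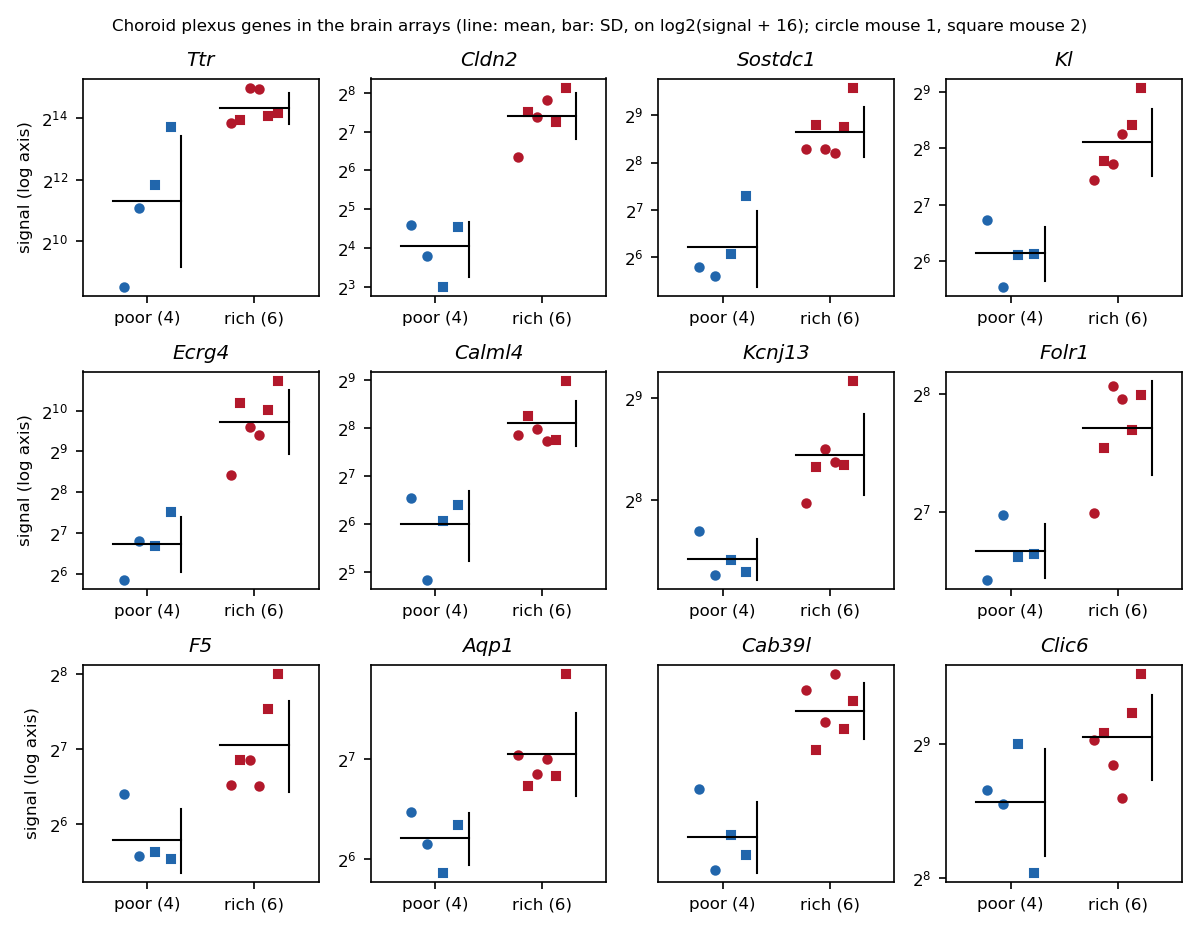
Signal in each brain array, on a log axis, for 12 choroid plexus genes, with poor arrays in blue and rich arrays in red, circles for mice numbered 1 and squares for mice numbered 2. Horizontal lines are group means and vertical bars SD on log2(signal + 16). Cldn2 and Calml4 show the widest clear space between groups, 1.28 and 1.07 log2, while the groups of Clic6 overlap.

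Among genes of the epithelial junctions, Cldn2 separated the groups most widely of the 44 choroid plexus genes that passed the filter. Its poor signals were 23.9 in mottled 1, 13.9 in pseudoagouti 1, 8.0 in pseudoagouti 2 and 23.1 in mottled 2, and its rich signals ran from 80.9 through 174 to 278. The difference was 2.52 ± 0.28 log2 (SE), or 5.73-fold, and 1.28 log2 lay between the nearest arrays. A second Cldn2 probe set disagreed, with a difference of 0.26 ± 0.29 log2 (SE) and full overlap, at 141 to 206 in rich and 76.3 to 214.5 in poor brains.

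Calml4, a calmodulin-like protein of epithelial brush borders, was again not in the score. Its poor signals were 93.3 in mottled 1, 28.9 in pseudoagouti 1, 67.1 in pseudoagouti 2 and 84.3 in mottled 2. In rich brains it stood at 214 to 500 with a median of 242, so that 1.07 log2 separated the groups and the means differed by 1.85 ± 0.34 log2 (SE). Cab39l, a scaffold for kinases that regulate ion transporters, showed a small and tight difference. Among poor brains its signals were 684, 561, 611 and 582 in mottled 1, pseudoagouti 1, pseudoagouti 2 and mottled 2, and its rich signals 755 to 908. The difference was only 0.44 ± 0.07 log2 (SE), without overlap.

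The other epithelial genes of this list that passed the filter overlapped between the groups. The keratins Krt8 and Krt18 differed by 0.13 ± 0.17 and 0.53 ± 0.24 log2 (SE) with overlap. The claudin Cldn3 and the adhesion molecule Epcam differed by -0.21 ± 0.59 and -0.71 ± 0.84 log2 (SE), and both were brightest in heavily mottled 1, at 335 and 1208, with mottled 1 next, at 200 and 944. These 2 arrays lie on opposite sides of the split. In this list 10 of 13 genes passed the filter, 2 were counted, 3 did not overlap and 8 had the higher mean in rich brains. Without the score gene Cldn2, 9 genes passed, 1 was counted, 2 did not overlap and 7 had the higher mean in rich brains. Over all probe sets tested these shares were 0.0755%, 0.373% and 50.7%.

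Of the transport genes that passed the filter, 0 were counted, beside 0.0755% of all probe sets tested. Kcnj13 and Aqp1, both score genes, were without overlap. Kcnj13, a potassium channel of the apical membrane, had poor signals of 207, 153, 170 and 157 in mottled 1, pseudoagouti 1, pseudoagouti 2 and mottled 2, and rich signals of 250 to 573 with a median of 327. Its difference was 0.96 ± 0.18 log2 (SE), just short of the limit of 1, without overlap. Aqp1, the water channel of the apical membrane, was at 88.2, 70.7, 58.1 and 80.8 in the same poor arrays and at 106 to 230 in rich ones, a difference of 0.73 ± 0.18 log2 (SE). Yellow 2 alone reached 230, and the other rich arrays did not exceed 131.

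Clic6, a chloride channel family member and the last of the score's transport genes, did overlap. Among poor brains its signals were 405, 375, 513 and 263 in mottled 1, pseudoagouti 1, pseudoagouti 2 and mottled 2, and the rich range was 387 to 735, for 0.47 ± 0.23 log2 (SE). A second Clic6 probe set differed by 0.93 ± 0.42 log2 (SE) and missed separation by less than 0.01 log2. The bicarbonate transporter Slc4a2 differed by 0.49 ± 0.20, the carbonic anhydrases Car14 and Car12 by 0.44 ± 0.23 and 0.37 ± 0.16, and the sodium-potassium-chloride carrier Slc12a2 by 0.22 ± 0.15 log2 (SE each), with overlap for each. Slc4a10, which neurons also express, differed by -0.12 ± 0.13 log2 (SE). Of the 13 genes in this list, 10 passed the filter, 0 were counted, 2 did not overlap and 9 had the higher mean in rich brains. Without the score genes, 7 genes passed, 0 did not overlap and 6 had the higher mean in rich brains. Over all probe sets tested, 0.0755% were counted as higher, 0.373% were higher without overlap and 50.7% had the higher mean.

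Kcne2, a potassium channel subunit of the same membrane, was too dim for the filter but separated the groups. In poor arrays the signals were 38.1 in mottled 1, 4.2 in pseudoagouti 1, 53.1 in pseudoagouti 2 and 42.8 in mottled 2, and its rich signals 108 to 258, a difference of 1.91 ± 0.44 log2 (SE). The bicarbonate transporter Slc4a5, also below the filter, was at 8.1 in heavily mottled 1 and at 64 or more in the other 5 rich arrays, against 12.5 to 37.7 in poor ones.

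Folr1, the folate receptor that the epithelium uses to pass folate into cerebrospinal fluid, also a score gene, was the 1 solute carrier gene whose groups did not overlap. Poor signals were 86.0 in mottled 1, 125.9 in pseudoagouti 1, 98.3 in pseudoagouti 2 and 99.7 in mottled 2, and rich signals 127 to 268 with a median of 228. The difference was 0.94 ± 0.18 log2 (SE), and heavily mottled 1 cleared pseudoagouti 1 by 0.01 log2 only. Abca4, a lipid flippase, differed by 1.38 ± 0.43 log2 (SE) with overlap, because yellow 1 was at 10.3, within the poor range of 8.2 to 24.6, while slightly mottled 1, heavily mottled 2 and yellow 2 were at 93 or more. The glucose carrier Slc2a12 differed by 0.58 ± 0.19 and the folate carrier Slc46a1 by 0.26 ± 0.18 log2 (SE each). In this list 9 of 11 genes passed the filter, 0 were counted, 1 did not overlap and 7 had the higher mean in rich brains. Without Folr1, 8 genes passed, 0 did not overlap and 6 had the higher mean in rich brains. Over all probe sets tested, 0.0755% were counted as higher, 0.373% were higher without overlap and 50.7% had the higher mean.

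The transcription factor and receptor list was not shifted as a whole, with a median difference of -0.11 log2 over the 5 of 10 genes that passed the filter and 2 of 5 higher in rich brains. Msx1 differed by 0.58 ± 0.21 log2 (SE) with overlap, and the serotonin receptor Htr2c, which many neurons express, by 0.23 ± 0.25. Otx2, a homeobox factor that marks choroid plexus among other tissues, fell below the filter. In poor arrays the signals were 4.6 in mottled 1, 131.9 in pseudoagouti 1, 6.9 in pseudoagouti 2 and 3.2 in mottled 2, and its rich signals 100 to 270. The exception among poor brains was thus pseudoagouti 1, whose Otx2 signal lay inside the rich range.

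Over the 5 choroid plexus lists together, 44 of 60 genes passed the filter, 36 of them had the higher mean in rich brains, 11 did not overlap and 7 were counted, with a median difference of 0.44 log2. Setting the 9 score genes aside left 35 genes with a median of 0.28 log2, of which 27 had the higher mean in rich brains. Of these 35, 3 did not overlap (Ecrg4, Calml4 and Cab39l) and 2 were counted. For comparison, 0.373% of all probe sets tested were higher in rich brains without overlap at any size of difference, and 0.142% were lower. Counted as higher were 0.0755%. The lists were chosen with earlier results of these data known, and Ecrg4 passed the filter through the rich arrays. The comparison is therefore no independent check of the split.

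Within the groups the 11 genes without overlap did not rank the arrays alike. Yellow 2 was the highest rich array for 8 of the 11 genes, and heavily mottled 1 the lowest for 6. Among poor brains mottled 1 was the highest for 7 and the lowest for 3, and pseudoagouti 1 was the lowest for 5. Mottled 1 held both extremes, with the lowest Ttr and Ecrg4 of all 10 arrays but the highest poor values of Kl, F5, Calml4 and Kcnj13. Mottled 2, by contrast, had the highest poor Ttr, Sostdc1 and Ecrg4.

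Beyond the lists, 3 genes were counted as higher in rich brains. Esrp2, a splicing regulator of epithelial cells, was at 22.2, 13.5, 18.5 and 35.0 in mottled 1, pseudoagouti 1, pseudoagouti 2 and mottled 2, and at 55.5 to 171 in rich brains, a difference of 1.40 ± 0.28 log2 (SE). Its second probe set differed by 0.51 ± 0.44 log2 (SE) with overlap. Ghr, the growth hormone receptor, was at 43.5, 10.1, 8.6 and 46.5 in the same poor arrays and at 57.5 to 115 in rich ones, for 1.27 ± 0.39 log2 (SE). Nol9, a kinase of ribosomal RNA processing, was at 95.2, 35.6, 147.5 and 54.7 against 165 to 218, for 1.21 ± 0.37 log2 (SE). All 3 were dim in brain, and their poor signals were spread over a wide range.

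With the size limit dropped, 84 probe sets were higher and 32 lower in rich brains without overlap. The following genes were picked from these after their values were seen. Col8a1, a collagen of basement membranes, was at 90.1, 138.3, 104.1 and 97.4 in mottled 1, pseudoagouti 1, pseudoagouti 2 and mottled 2 and at 179 to 255 in rich brains, for 0.88 ± 0.14 log2 (SE). Mtmr11 differed by 0.78 ± 0.13 and the desmosomal plaque gene Pkp2 by 0.60 log2. In the other direction H6pd, which supplies NADPH inside the endoplasmic reticulum, was at 159, 193, 177 and 134 in the same poor arrays and at 46.2 to 116 in rich ones, a difference of -0.81 ± 0.19 log2 (SE). Rps6ka3, Col19a1 and Auts2 differed by -0.48, -0.58 and -0.54 log2.

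Markers of neighbouring tissues were read beside the choroid plexus genes, and 0 genes of the 29 other lists were counted in either direction among those that passed the filter. Over all probe sets tested 0.0755% were counted as higher and 0% as lower, so a count of 0 is near the general share. Genes of the ependyma, the ciliated lining of the ventricles, leaned the same way. Their median difference was 0.34 log2 over the 20 genes measured, of which 3 passed the filter, and their summed signal was 2271 to 4609 in rich and 1765 to 2508 in poor brains. Tmem212 was at 96.3, 87.4, 184.3 and 120.5 in mottled 1, pseudoagouti 1, pseudoagouti 2 and mottled 2 and at 160 to 524 in rich arrays, for 1.20 ± 0.33 log2 (SE) with overlap. Ak7 and Fam183b differed by 0.99 ± 0.26 and 1.13 ± 0.41 log2 (SE), with overlap for both. Enkur, too dim for the filter, was at 12.1 to 108.3 in poor and 115 to 154 in rich arrays, without overlap.

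Of the 20 ependymal genes measured, 12 were highest, among the rich arrays, in heavily mottled 1, 4 in yellow 1, 2 in slightly mottled 1 and 2 in yellow 2, and 10 were lowest in heavily mottled 2. Heavily mottled 1, the lowest rich array for choroid plexus, thus led for Tmem212 at 524, Fam183b at 189, Ak7 at 414 and Rsph1 at 321. Heavily mottled 2, with the next highest choroid plexus score after yellow 2, was at 160 for Tmem212 and 83 for both Fam183b and Rsph1.

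The vessels, coverings and macrophages that accompany the choroid plexus epithelium had median differences near 0. Leptomeningeal and fibroblast genes had a median difference of 0.01 log2, with 9 of 17 higher in rich brains and summed signals of 4790 to 10801 in rich and 7016 to 9053 in poor arrays. Endothelial genes had a median of -0.11 log2 (2 of 10 higher; 5774 to 8978 and 7110 to 8411), and microglia and macrophage genes -0.07 log2 (2 of 12 higher; 11507 to 15946 and 11846 to 16775). Pericyte and smooth muscle genes had a median of 0.10 log2 and astrocyte genes 0.04 log2.

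Markers of other brain regions and cell types varied between the arrays, and several leaned with the split. Thalamic genes had a median difference of 0.81 log2 (6 of 6 that passed the filter higher in rich brains), led by Tcf7l2 with 1.03 ± 0.51 and Prkcd with 0.91 ± 0.58 log2 (SE). Their high arrays were heavily mottled 1, slightly mottled 1, yellow 1 and slightly mottled 2, whereas heavily mottled 2 and yellow 2, both rich, were low. Tcf7l2 was at 306 in heavily mottled 2 and 528 in yellow 2, against 314 to 670 in poor brains. Dentate gyrus and hippocampal genes had a median of 0.67 log2 (6 of 6 higher), with C1ql2 at 204 to 544 in rich arrays and at 37.5, 169.0, 25.4 and 401.0 in mottled 1, pseudoagouti 1, pseudoagouti 2 and mottled 2. The hippocampal gene Fibcd1, too dim for the filter, did not overlap, at 60.0 to 174.8 in poor and 191 to 331 in rich brains. Oligodendrocyte genes were higher in 9 of 9, with a median of 0.36 log2 and Mag at 0.64 ± 0.27 log2 (SE). Cortical genes that passed the filter were lower in 6 of 6, each with overlap, with a median of -0.34 log2. The cortical gene Fezf2, below the filter, went the other way, with 0.49 ± 0.44 log2 (SE). The part of regional content in the choroid plexus difference was not tested.

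In the cerebellar list the median of -0.98 log2 came from 1 array. Pseudoagouti 1 had 12110 for the Purkinje cell gene Pcp2, 8967 for the granule cell receptor Gabra6 and 6259 for the granule cell gene Cbln3, where the other 9 arrays did not exceed 154, 111 and 70. The hypothalamic peptide gene Pmch was at 3852 in pseudoagouti 1 and at 1288 to 5502 in heavily mottled 1, slightly mottled 2, yellow 1 and slightly mottled 1, but at 58 to 115 in the other 5, which included both yellow 2 and heavily mottled 2 among the rich. The dopamine transporter gene Slc6a3 was at 769 in heavily mottled 1 and 2222 in slightly mottled 1, and did not exceed 198 elsewhere. None of these peaks followed the line between rich and poor brains. Leaving out pseudoagouti 1, the array with cerebellar signal, raised the count from 17 to 29 probe sets higher and from 0 to 9 lower, with 8 rather than 7 choroid plexus genes counted.

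**Figure D4:**
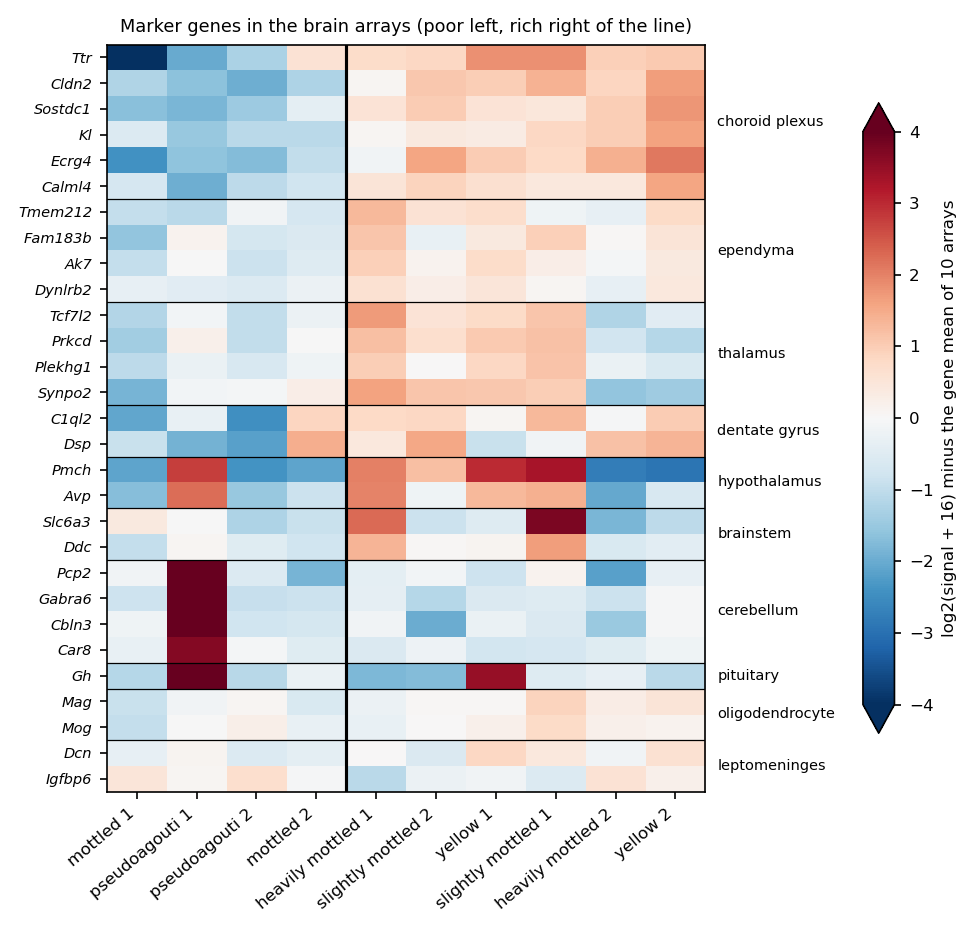
Marker genes of the choroid plexus and of other regions and cell types in the 10 brain arrays, as log2(signal + 16) minus the gene's mean over the 10 arrays, with colour capped at 4 in either direction. Arrays are in rising order of score, with a line between the 4 poor and 6 rich ones. Cldn2, Sostdc1, Kl, Ecrg4 and Calml4 change at the line, while Ttr rises within the poor arrays and has a gap of 0.14 log2 there. The cerebellar genes are high in pseudoagouti 1 alone, and Pmch is low in heavily mottled 2 and yellow 2.

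The agouti gene, a, whose Avy allele sets the coat, did not divide the same way. Its brain signals were 285, 75, 119 and 202 in mottled 1, pseudoagouti 1, pseudoagouti 2 and mottled 2 and 109 to 430 in rich brains, for 0.65 ± 0.46 log2 (SE) with overlap. Circadian clock genes had a median of 0.08, glucocorticoid-responsive genes 0.09, heat shock chaperones 0.09 and immediate early genes 0.00 log2. Liver, kidney and fat markers, which would mark tissue carried over, had medians of -0.01, 0.23 and 0.16 log2 over 6, 5 and 4 genes. Of the skeletal muscle markers 1 passed the filter, at 0.06 log2, and the median over the 5 measured was -0.23 log2.

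The coat classes come from the labels and not from the score, so they could be tested. In a limma F-test over the 5 classes in brain, 0 of 22519 probe sets (0%) passed an adjusted p of 0.05 and 280 (1.24%) had an unadjusted p under 0.05, with a smallest adjusted p of 0.832. Cldn2 ranked first with this adjusted p, followed by Ecrg4 and Calml4 with an adjusted p of 1 each in limma. Unadjusted p-values under 0.05 were found for 7 of the 9 score genes and 10 of the 44 choroid plexus genes. Both mice of each class lay on 1 side of the split and these genes were chosen on the same brain arrays, so nothing about the split is read from these p-values.

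Class means showed the order within each side. Cldn2 averaged 7.86 ± 0.48 in yellow, 7.78 ± 0.21 in slightly mottled, 6.99 ± 0.56 in heavily mottled, 5.30 ± 0.02 in mottled and 4.74 ± 0.22 log2 in pseudoagouti brains (SD, n = 2 each). Ecrg4 averaged 10.18 ± 0.78, 9.82 ± 0.55, 9.26 ± 1.09, 6.92 ± 1.01 and 6.95 ± 0.08 log2 in the same order. For Ecrg4, yellow and slightly mottled brains differed by less than the larger SD of the pair. The same held for slightly mottled and heavily mottled brains, and for mottled and pseudoagouti brains.

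Other genes among the 10 smallest p-values had patterns unlike the split. Ngfr, the low-affinity neurotrophin receptor, was low in mottled brains alone (5.05 ± 0.18 log2 against 7.24 to 7.63 in the other classes). Samhd1 was low in slightly mottled brains alone, at 6.27 ± 0.26 log2, and Col9a3, a cartilage collagen, was at 6.15 ± 0.31 in mottled and 9.32 ± 0.27 log2 in yellow brains (SD, n = 2 each). The adjusted p in limma was 1 for each of the 3. When mottled 2, the poor array with the highest Ttr, was left out, the 4 Ttr probe sets passed the F-test (adjusted p from 0.00874 to 0.0239 in limma). Ttr is a score gene and mottled then held 1 mouse, so nothing is read from this. When pseudoagouti 2 was left out, 4 cerebellar probe sets of Gabra6, Pcp2 and Car8 passed instead, and the class then rested on pseudoagouti 1.

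Liver and kidney of the same mice were not used by the score, and they were compared between the same mice. Many of these genes are expressed in those tissues, Ttr and F5 in liver and Cldn2, Kl, Sostdc1, Folr1 and Aqp1 in kidney. In liver, 0 probe sets (0%) passed an adjusted p of 0.05 in limma between the 6 mice with rich and the 4 with poor brains, and 304 (1.35%) had an unadjusted p under 0.05. In kidney the counts were 0 (0%) and 970 (4.31%). The test on simulated data recovered 91.5% of changes of 2 log2 in liver and 96% in kidney. The simulated spread held no variation between classes or numbers, so recovery in the real data can be lower, and smaller changes were not simulated.

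Ttr in liver was at 24189 to 35452 in the mice with rich brains and 23254 to 30319 in those with poor brains, a difference of 0.08 ± 0.15 log2 (SE; adjusted p = 1 in limma). In kidney Cldn2 was at 7236 to 11283 and 5618 to 10297, a difference of 0.24 ± 0.19 log2 (SE; adjusted p = 0.933 in limma). Kl in kidney differed by 0.19 ± 0.17 and Sostdc1 by -0.03 ± 0.15 log2 (SE). The renal Folr1 difference of 0.44 ± 0.22 log2 (SE) was the largest among the score genes there, with an adjusted p of 0.933 in limma. Over the 44 choroid plexus genes, the median difference was -0.04 log2 in liver and -0.02 log2 in kidney, with 0 and 1 genes under an unadjusted p of 0.05. The 1 was the homeobox gene Emx2 in kidney, with a difference of -0.39 ± 0.14 log2 (SE; adjusted p = 0.933 in limma).

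**Figure D5:**
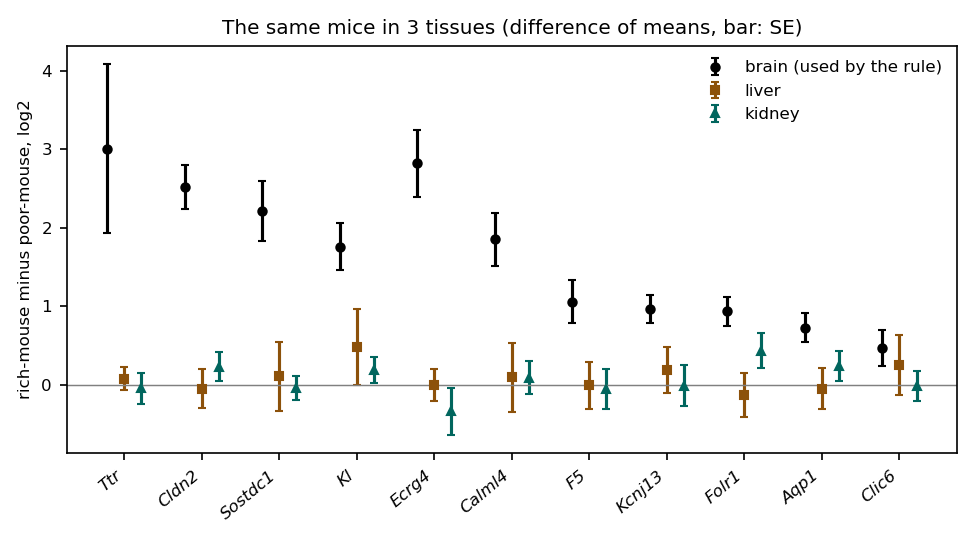
Difference between mice with rich and mice with poor brains, as log2 with SE bars, for 11 choroid plexus genes in brain (circles), liver (squares) and kidney (triangles). Brain values run from 0.47 for Clic6 to 3.01 for Ttr and are fixed in part by the score, while the liver and kidney values of these genes lie between -0.33 and 0.48.

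The smallest p-values outside the choroid plexus genes named other transcripts. In liver these were Rbfox3, with a difference of 1.30 ± 0.23, and Camk4, with -1.23 ± 0.27 log2 (SE), both with adjusted p = 1 in limma and both dim there. In kidney they were Inhbb, the activin beta B subunit, with 1.44 ± 0.30, and the growth factor-binding protein Igfbp3, with 0.69 ± 0.15 log2 (SE), both with adjusted p = 0.933 in limma.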

How the data were processed

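Total RNA of 30 tissue samples was measured on Affymetrix Mouse Genome 430 2.0 arrays. The authors deposited 1 linear intensity for every probe set and array, made with MAS5 per the submitters' processing notes. Each array had been scaled to a trimmed mean of 500.0 (2% trimmed at each end), as the file's values show. The file gives no detection calls, and the number of arrays limits the precision.

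Values were analysed on the log2(signal + 16) scale. Folds are of signal + 16, so for dim genes they are smaller than the ratio of the signals. The 64 control probe sets among 45101 were removed, and another was kept if the highest of its 3 tissue means reached the median of that quantity, a signal of 251.8. Genes dim in brain could therefore pass through kidney or liver. A gene dim in poor brains, such as Ecrg4, could also pass through the rich brain arrays alone. A gene stood in a list by its brightest brain probe set that passed, or by its score probe set. SEs were computed from the spread of the arrays in each group.

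Rich and poor brains were described without a test. Coat classes in brain, and liver and kidney of the same mice, were tested with limma 3.58.1 in R 4.3.3 (lmFit, eBayes with trend, two-sided, Benjamini-Hochberg over all probe sets, threshold 0.05). On simulated data with 200 changed probe sets, changes of 2 log2 were recovered in 91.5% (liver), 96% (kidney) and 80.5% (class F-test in brain). The simulated spread was what remained after class and number were fitted. The labels do not say that mice are from separate litters, and a class and number shared by arrays of different tissues was read as 1 mouse.

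Named genes were the score genes, list members with the largest gap or difference, genes outside the lists by the largest gap, and the smallest p-values of each fit. The members, the 34 gene lists and this rule were chosen with earlier results of these data known. The labels give both mice of a class the numbers 1 and 2. Deviations of same-numbered mice from their class means correlated, over the 10 pairs of classes, at 0.13 to 0.392 (liver), 0.008 to 0.533 (kidney) and -0.009 to 0.5 (brain). The medians were 0.235 in liver, 0.299 in kidney and 0.184 in brain, and 10, 9 and 6 of the pairs were over 0.1. Same-numbered mice thus tended to deviate together, least evenly in brain, and the main fits held no term for the number. Offsets of 1 and 64, no filter, a filter within the tissue, quantile normalisation, the number as a block, the Gapdh ratio as a covariate, each number alone and each mouse left out were the alternatives tried.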

Additional observations from a re-analysis of the deposited data

Results flagged for a closer look

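In 260 combinations of a named gene and a brain group, 17 held an array that stood apart from the rest of its group by Dixon's criterion, which flags about 1 in 20 groups by chance. Of the 17, 8 concerned pseudoagouti 1. In that array the cerebellar genes Gabra6 (8967, against 54.0 to 59.3 in the other poor arrays), Cbln3 (6259 against 35.0 to 63.3) and Car8 (9625 against 529.5 to 701.9) were high. So were the hypothalamic peptides Pmch (3852 against 90.4 to 115.1) and Hcrt (833 against 233.6 to 272.9), the pituitary hormone Gh (2092 against 28.0 to 65.4) and the kidney cadherin Cdh16 (58.3 against 19.4 to 23.7), while the clock gene Npas2 was low (351 against 889.0 to 1068.2).

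In mottled 1 the choroid plexus gene F5 was high among poor arrays (84.1 against 46.3 to 49.3) and the oligodendrocyte gene Opalin low (849 against 1263.6 to 1360.4). Yellow 2 stood above the other rich arrays for Aqp1 (230 against 106.2 to 130.9) and the astrocyte receptor Fgfr3 (3190 against 2408.8 to 2651.3). Yellow 1 had 1075 for Gh against 11.7 to 62.0 in the other rich arrays. Slightly mottled 1 was low for the striatal gene Pde10a (886 against 2932.2 to 5294.1) and high for Mgrn1 (3159 against 2235.0 to 2485.3). Umod was 9.0 in slightly mottled 2 against 49.0 to 81.9, and Hsph1 was 4422 in heavily mottled 1 against 5759.4 to 6180.3.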

How the results depend on the processing

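The genes counted as higher were chosen for groups that do not overlap, which fixes their sign under most settings, so no stability is read from it. In place of 17 higher and 0 lower probe sets, an offset of 64 gave 11 higher and no filter 32 higher and 14 lower. A filter on the brain mean gave 10 higher, quantile normalisation 1 lower, and the replicate block and the Gapdh covariate 2 lower each. Within mice numbered 1 there were 142 higher and 73 lower, and within number 2 58 and 38. With differences of any size, 84 and 32 did not overlap. Leaving out 1 mouse at a time gave 16 to 29 higher and 0 to 9 lower, and 6 to 9 choroid plexus genes in place of 7. The count of 9 came without heavily mottled 1. Without the pair mottled 1 and heavily mottled 1, an alternative chosen after seeing the data, 8 were lower. The choroid plexus count was 11 genes at any size. With all probe sets of each gene, 12 of 76 probe sets were counted, and they stood for the same 7 genes. Of the 7 genes, all stayed with the replicate block, F5 was lost with an offset of 64, quantile normalisation and within number 1, and Cldn2 and F5 with the filter on the brain mean. The class F-test gave 0 to 4 calls with 1 mouse left out, where the lone mouse was assumed to vary like the others, and 0 under the other settings. It had 524 unadjusted p-values under 0.05 with the replicate block (smallest adjusted p 0.225 in limma). In kidney the block gave 1751 such values and in liver 407, with 0 calls in both tissues under every setting tried. Causes of these shifts were not tested beyond the smaller numbers of arrays or probe sets that a setting implies. Without detection calls, dim genes such as Otx2 and Kcne2 have uncertain levels.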
